A study of Mus musculus with 5 samples.

Results

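The genes described here are the 32 members of a list of glycolysis, lactate and pentose phosphate genes in dendritic cells of the mouse thymus. The list was drawn up with earlier results of these data known, and its genes were picked from the table of read counts by symbol. All 32 were found among the 18051 genes of that table. All 32 were also among the 12046 genes that passed a filter on low counts and were tested. Rpia and Eno2 had the fewest counts, and Eno2 reached 10 counts only in the untreated libraries, so it passed through the group in which it is higher.

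Thymi were pooled and digested with enzymes, and CD45+ cells that carried both MHC class II and CD11c were sorted and their RNA sequenced in bulk. All mice were C57BL/6J, aged 6 to 8 weeks, and no transgene, deletion or other agent is named for any of them. The untreated group had 2 libraries, and the group harvested 4 days after total body irradiation (TBI) had 3. The radiation dose is not given in the sources used here, and nothing says that replicates came from separate pools of thymi, so p-values measure the spread between these libraries, which may be technical.

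Glycolysis breaks glucose down to pyruvate in the cytosol. Hexokinase, phosphofructokinase and pyruvate kinase catalyse its committed steps, and lactate dehydrogenase turns pyruvate into lactate, which monocarboxylate transporters export. The pentose phosphate pathway branches off after hexokinase: its oxidative arm makes NADPH, and its non-oxidative arm exchanges sugar phosphates with glycolysis and supplies ribose for nucleotides. Dendritic cells and macrophages are known to raise glycolysis when they are activated, and many of these steps have several isoenzymes whose genes are used to different extents in different cell types.

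Library totals ran from 7227000 to 8428589 counts, where 1 count equalled 0.124 to 0.145 CPM (counts per 1e6 on a library size scaled by TMM, a method that matches most genes between libraries). The sorted cells differed between groups in markers of several cell types. All 15 macrophage markers passed as higher, with a summed level of 4870 to 5950 CPM in the untreated and 51200 to 56500 CPM in the TBI libraries. Of 10 plasmacytoid dendritic cell markers 9 were lower, with a sum of 3760 to 3870 against 682 to 870 CPM. Of 15 conventional dendritic cell markers 8 were lower and 2 higher, with a sum of 57900 to 58900 against 39600 to 55700 CPM. Natural killer cell markers (7 of 8 higher) summed to 113 to 116 against 798 to 944 CPM, B cell markers (6 of 6 tested higher) to 85.8 to 108 against 293 to 425 CPM, and thymocyte markers (6 of 12 lower, 2 higher) to 2520 to 2780 against 1680 to 1920 CPM. Neutrophil markers (2 higher and 1 lower of 9 tested) summed to 55.1 and 432 against 223 to 546 CPM, and stromal and epithelial markers (3 higher and 4 lower of 11 tested) to 182 to 204 against 88.7 to 116 CPM. Of 13 immediate-early and heat shock genes, which respond to handling, 6 were higher, with a sum of 5850 and 8440 against 8610 to 11300 CPM, and of 12 cell cycle genes 1 was lower. No conventional or plasmacytoid dendritic cell marker was at 0 in either group. Of 6 erythroid markers only 2 were among the genes counted, and neither had enough counts to be tested. Markers at 0 counts in a whole group were Pax5, Col1a2 and Pdgfra in the untreated and Mpo, Elane and Pdgfra in the TBI libraries. The part that cell type markers play in the differences below was not tested, and in bulk RNA fewer cells of a type and less RNA per cell cannot be told apart.

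Of the 32 genes, 8 were higher and 3 were lower in the TBI libraries at an adjusted p of 0.05 (edgeR's quasi-likelihood test with Benjamini-Hochberg adjustment over all genes tested), and 21 did not pass. The genes that rose were Slc2a6, Hk3, Aldoa, Tpi1, Pkm, Slc16a3, G6pdx and Pgd, and those that fell were Slc2a3, Ldhb and Pdk1. Over all genes tested, 13.3% were higher and 9.79% lower (23.1% in either direction), so 25.0% of the members were higher and 9.38% lower. The share of members that fell was near that background. The median log2 fold change was 0.39 over the 32 members and -0.01 over all genes tested (to 2 decimals), and 21 members had a positive and 11 a negative value. The libraries of the groups did not overlap for 26 members, 17 higher and 9 lower after TBI. Over all genes tested 56.1% did not overlap, 27.8% higher and 28.3% lower. The count of higher members depended on single libraries, as did that of all 12046 genes tested, of which 1599 were higher. Without TBI replicate 1 the higher members numbered 16, against 2148 of all genes, and without TBI replicate 2 they numbered 5, against 1320. With either untreated library left out, which leaves 1, fewer members and fewer of all genes were called in each direction. Scaling by library size alone moved the median of all genes to -0.23. With it 5 members were higher and 6 lower, against 1241 and 2129 of all 12046 genes tested. When a change of at least 2-fold was also required, 3 members were higher and 2 lower, against 1112 and 743 of all genes. These shares were close in each direction.

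**Figure D1:**
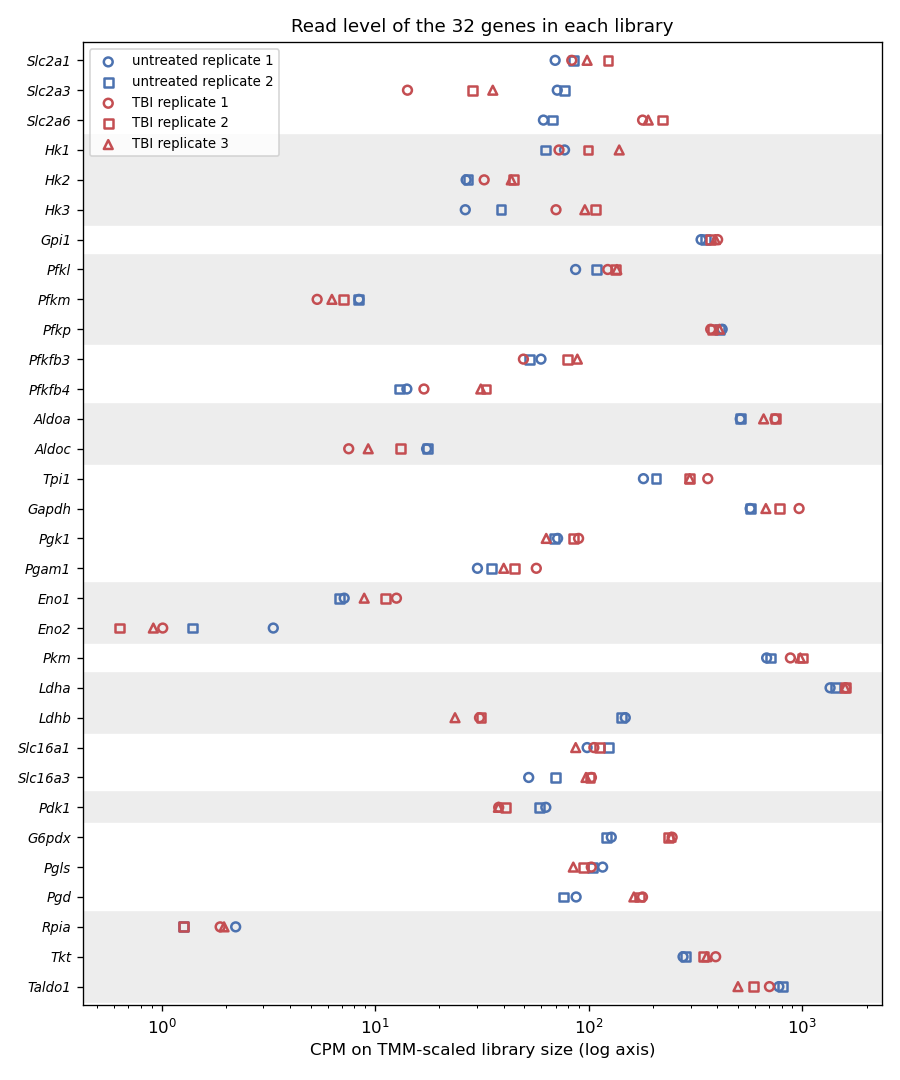
Read level of each of the 32 genes in each library, in CPM on a log axis, with untreated libraries in blue and TBI libraries in red and the marker shape giving the replicate. Shaded bands separate the steps of the pathway. The TBI libraries lie to the right for Slc2a6, Hk3, G6pdx and Pgd and to the left for Slc2a3 and Ldhb, with no overlap of groups for these 6 genes.

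**Figure D2:**
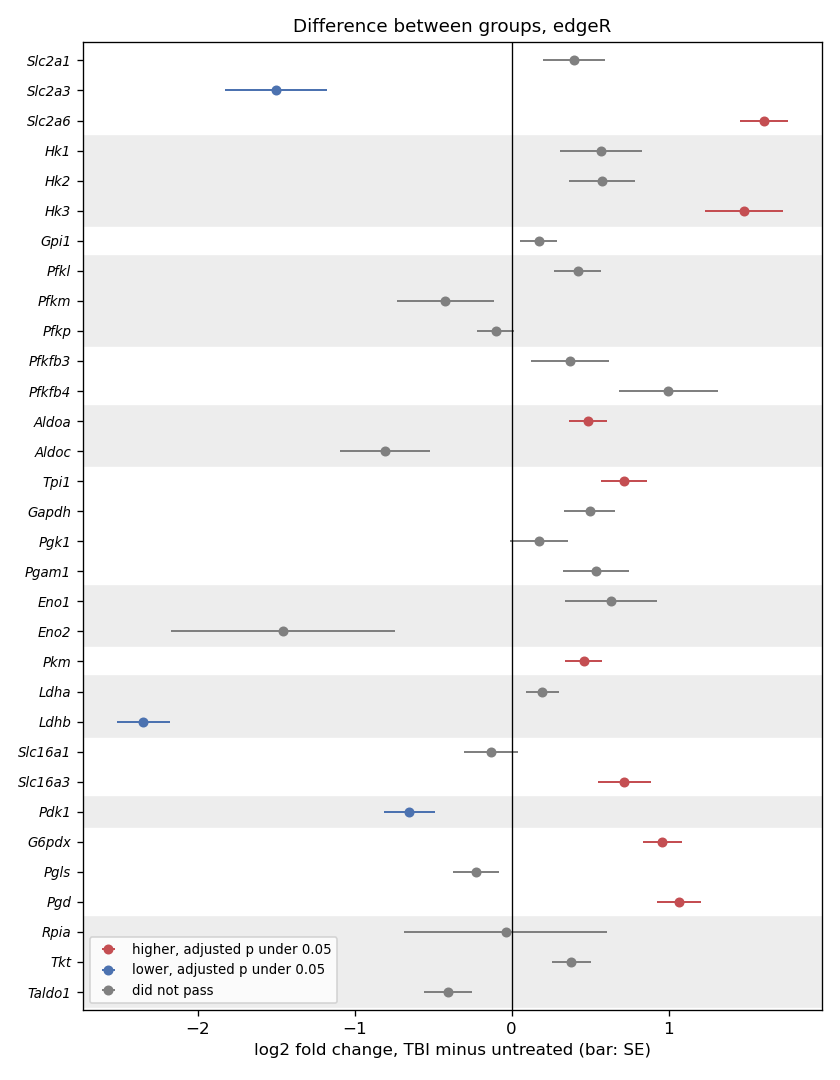
Log2 fold change of each gene, TBI minus untreated, with its standard error as a bar. Red points are the 8 genes that were higher and blue points the 3 that were lower at an edgeR adjusted p under 0.05, and grey points are the 21 that did not pass.

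Among the genes for glucose transporters, Slc2a6 rose, Slc2a3 fell, and Slc2a1 did not pass the test. Slc2a6 encodes GLUT6, a hexose transporter of lysosomal membranes in myeloid cells. It lay at 61.4 and 67.5 CPM in the untreated libraries and at 179, 221 and 190.1 CPM after TBI. Every TBI library was above both untreated ones, with a log2 difference of 1.61 ± 0.15 (SE; edgeR adjusted p = 0.00017), which is 3.05-fold. Slc2a3 encodes GLUT3, a high-affinity transporter of the plasma membrane. It lay at 71.3 and 76.8 CPM untreated and at 14.2, 28.6 and 35.6 CPM after TBI, with TBI replicate 1 the lowest of the 5 and no overlap of groups. Its log2 difference was -1.50 ± 0.32 (SE; edgeR adjusted p = 0.0119), 2.83-fold lower, and the call was lost without untreated replicate 2 (adjusted p from 0.000166 to 0.0657 over 14 refits, each with 1 choice changed). Slc2a1, which encodes the widely used transporter GLUT1, lay at 69.7 and 84.8 CPM untreated and 83.3, 123 and 98.3 CPM after TBI. The groups overlapped, since TBI replicate 1 was below untreated replicate 2, and the difference of 0.40 ± 0.20 (SE; edgeR adjusted p = 0.19) has a 95% interval of -0.06 to 0.85 on the log2 scale. Slc2a1 passed as higher without TBI replicate 1 (adjusted p from 0.0251 to 0.672 over the alternatives).

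Counted per kilobase of exon, which allows different genes to be compared, Slc2a1 and Slc2a6 were near each other in untreated cells (22.03 and 20.1 CPM per kilobase) and Slc2a3 was lower (10.2). After TBI the order was Slc2a6 (61.3), Slc2a1 (28.98) and Slc2a3 (3.61 CPM per kilobase). As a share of the level of the 3 transporter genes together, Slc2a6 went from 38.4% ± 1.06 to 65.5% ± 2.54 (SD, 2 and 3 libraries) and Slc2a3 from 19.6% ± 0.809 to 3.798% ± 1.47. The untreated order depended on which length was used: with the coding sequence in place of all exons, the untreated shares were 35.9% for Slc2a1, 34.4% for Slc2a3 and 29.7% for Slc2a6. Slc2a6 lies on chromosome 2, 27021363 to 27027998, and Slc2a3 on chromosome 6, 122727809 to 122801640, in GRCm38, the build also called mm10.

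Of the hexokinase genes, whose products phosphorylate glucose and so trap it in the cell, Hk3 rose, while Hk1 and Hk2 did not pass. Hk3, the hexokinase of granulocytes and other myeloid cells, lay at 26.4 and 38.9 CPM in the untreated and 70.3, 107 and 95.99 CPM in the TBI libraries. The groups did not overlap, with a log2 difference of 1.48 ± 0.25 (SE; edgeR adjusted p = 0.00335), 2.796-fold, and the call was kept in all 14 refits (adjusted p from 4.17e-07 to 0.0408). Hk2, an inducible hexokinase that binds mitochondria, lay at 26.7 and 27.2 CPM untreated and at 32.4, 44.5 and 43.4 CPM after TBI. These values did not overlap, but the difference of 0.57 ± 0.21 (SE; edgeR adjusted p = 0.0864) did not pass. Hk1, the constitutive hexokinase, lay at 77.1 and 62.8 CPM untreated and 72.6, 99.4 and 139 CPM after TBI, and TBI replicate 1 lay between the untreated libraries. Its difference was 0.57 ± 0.26 (SE; edgeR adjusted p = 0.159). Without TBI replicate 1 both Hk1 (adjusted p from 0.0101 to 0.561 over the alternatives) and Hk2 (0.00789 to 0.392) passed as higher.

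The share of Hk3 in the summed level of the 3 hexokinases went from 40.8% ± 8.67 to 56.9% ± 4.04 (SD, 2 and 3 libraries) per kilobase of exon, and the 2 untreated libraries differed, at 34.7% and 46.97%. Which hexokinase was the highest depended on the length used. With exon length Hk3 led after TBI with 56.9% against 27.6% for Hk1, whereas with the coding length Hk1 led with 43.0% against 39.5% for Hk3. In untreated cells Hk1 led with the coding length (53.3% against 25.5% for Hk3), and with exon length the 2 were close (38.2% and 40.8%). Gpi1, the isomerase that passes glucose 6-phosphate on to fructose 6-phosphate, lay at 336 and 353 CPM untreated and 402, 372 and 392 CPM after TBI. Its groups did not overlap, but the difference was small and did not pass (log2 difference 0.17 ± 0.12 SE, edgeR adjusted p = 0.338, 95% interval -0.10 to 0.44), and its sign changed with library size alone.

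None of the phosphofructokinase genes passed. These encode the subunits of the enzyme of the first committed step of glycolysis. Pfkp, the platelet type, lay at 422 and 410.4 CPM untreated and 373, 381 and 409 CPM after TBI, a difference of -0.10 ± 0.12 (SE; edgeR adjusted p = 0.58) with a 95% interval of -0.37 to 0.17. Pfkl, the liver type, lay at 86.9 and 108 CPM untreated and 123, 134 and 135 CPM after TBI, all TBI libraries above the untreated ones, with 0.42 ± 0.15 (SE; edgeR adjusted p = 0.0809). Pfkm, the muscle type, was the lowest of the family, at 8.402 and 8.35 against 5.35, 7.098 and 6.28 CPM, with -0.42 ± 0.31 (SE; edgeR adjusted p = 0.372). Per kilobase, Pfkp held 64.5% ± 3.48 to 57.4% ± 1.08 and Pfkl 30.3% ± 3.68 to 38.9% ± 0.643 (SD, 2 and 3 libraries) of the family, in the same order in every library and with each length used. The summed level of the family was 47.0 and 49.4 CPM per kilobase in the untreated and 47.8, 50.6 and 52.7 CPM per kilobase in the TBI libraries.

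The bifunctional PFKFB enzymes set the level of fructose 2,6-bisphosphate, the main activator of phosphofructokinase. Pfkfb4 lay at 14.1 and 13.04 CPM in the untreated libraries and at 16.9, 33.1 and 31.3 CPM after TBI. The groups did not overlap, and its difference of 0.999 ± 0.31 (SE; edgeR adjusted p = 0.0532) missed the threshold. It passed with DESeq2, with a stricter filter on low counts and without TBI replicate 1 (adjusted p from 0.00113 to 0.273 over the alternatives). Pfkfb3, an inducible form with high kinase activity, lay at 59.8 and 52.7 CPM untreated and 49.5, 79.9 and 88.5 CPM after TBI. TBI replicate 1 was below both untreated libraries and the other TBI libraries were above them, and the difference of 0.37 ± 0.25 (SE; edgeR adjusted p = 0.327) did not pass, while without TBI replicate 1 it did (0.00712 to 0.725).

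From aldolase to pyruvate kinase, 3 of 9 genes rose and none fell, where 13.3% of all genes tested were higher and 9.79% lower. With so few genes, the absence of a fall says little. Aldoa, the main aldolase of most cells, lay at 513 and 513 CPM in the untreated libraries and 745, 752 and 659.6 CPM after TBI, with a log2 difference of 0.49 ± 0.12 (SE; edgeR adjusted p = 0.0214). Tpi1, the triose phosphate isomerase, lay at 181 and 207 CPM against 361, 296 and 297 CPM, with 0.72 ± 0.15 (SE; edgeR adjusted p = 0.00966). Pkm, the pyruvate kinase of cells other than liver and red cells, lay at 681 and 708 CPM against 880.2, 1007 and 979 CPM, with 0.46 ± 0.12 (SE; edgeR adjusted p = 0.0249). In all 3 the TBI libraries lay above both untreated ones, by 1.402-fold, 1.64-fold and 1.38-fold. These calls were less steady than those of Slc2a6 and Hk3. Aldoa and Pkm were not called without either untreated library, without TBI replicate 2 or with library size alone (adjusted p from 0.00208 to 0.184 and from 0.00195 to 0.221 over the alternatives), and Tpi1 was not called without either untreated library (0.000132 to 0.137).

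The other genes of this stretch did not pass. Gapdh, often used as a reference gene, lay at 570.5 and 574 CPM in the untreated and 967, 779.7 and 676 CPM in the TBI libraries. Its groups did not overlap, and its difference of 0.50 ± 0.16 (SE; edgeR adjusted p = 0.06) was called by DESeq2 and without TBI replicate 1 or 3 (adjusted p from 0.0199 to 0.263). Pgam1, the phosphoglycerate mutase of most tissues, lay at 30.1 and 34.9 against 56.9, 45.1 and 40.02 CPM, also without overlap (log2 difference 0.54 ± 0.21 SE, edgeR adjusted p = 0.105). Pgk1, the phosphoglycerate kinase that makes the first ATP of glycolysis, lay at 71.5 and 68.99 against 89.7, 85.2 and 63.3 CPM and overlapped (log2 difference 0.18 ± 0.18 SE, edgeR adjusted p = 0.541), with a change of sign under library size alone. Aldoc, the aldolase of brain, had a negative value, at 17.4 and 17.6 against 7.52, 13.2 and 9.28 CPM (log2 difference -0.80 ± 0.29 SE, edgeR adjusted p = 0.0798). It passed as lower with library size alone and without TBI replicate 2 (adjusted p from 0.0321 to 0.344). Eno1, the general enolase, lay at 7.17 and 6.84 against 12.6, 11.2 and 8.89 CPM (log2 difference 0.63 ± 0.29 SE, edgeR adjusted p = 0.16), and Eno2, the neuronal form, had 27 and 11 counts against 7, 5 and 7 (log2 difference -1.46 ± 0.71 SE, edgeR adjusted p = 0.183).

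Several of these levels are uncertain because the genes have near-identical copies. To show which, the longest coding transcript of each gene in GENCODE M21 was cut into all its 50-base windows, and windows also present in a transcript of another gene were counted. Of the 32 genes, 16 shared no window and 16 shared at least 1. Gapdh shared 90.4% of its windows and did so with transcripts of 222 other genes, most with the pseudogene Gm7336. Eno1 shared 72.2%, nearly all with Eno1b, a retrocopy, Pgk1 68%, Pgam1 41.5% and Pkm 34.4%. How reads that map to several places were counted is not given in the sources used here. Eno1 lay at 1.302 CPM per kilobase in untreated cells, where Aldoa lay at 176 and Pkm at 139. Eno1b lay at 9.02 and 8.35 CPM in the untreated and 22.7, 21.9 and 15.8 CPM in the TBI libraries and was called higher (log2 difference 1.21 ± 0.26 SE, edgeR adjusted p = 0.012). Reads from the windows they share cannot be told apart. Among the other genes called, Ldhb shared 27%, Aldoa 13.5%, G6pdx 10.7% and Tpi1 7.51%, while Slc2a3, Slc2a6, Hk3, Slc16a3, Pdk1 and Pgd shared none. Pfkp shared 17.1% with Pitrm1, a gene on the opposite strand that overlaps it. Of the genes called, G6pdx also overlaps Ikbkg, Hk3 overlaps Unc5a, Aldoa overlaps Fam57b and Tpi1 overlaps Spsb2 on the opposite strand. On the same strand, Slc2a3 overlaps the pseudogene Gm4482 and Pkm overlaps Gm49759, which a strand setting would not separate. The Hk3 transcript shared no window with Unc5a or any other gene. Without a stated strand setting, reads from exon sequence shared by overlapping genes cannot be assigned with certainty.

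**Figure D3:**
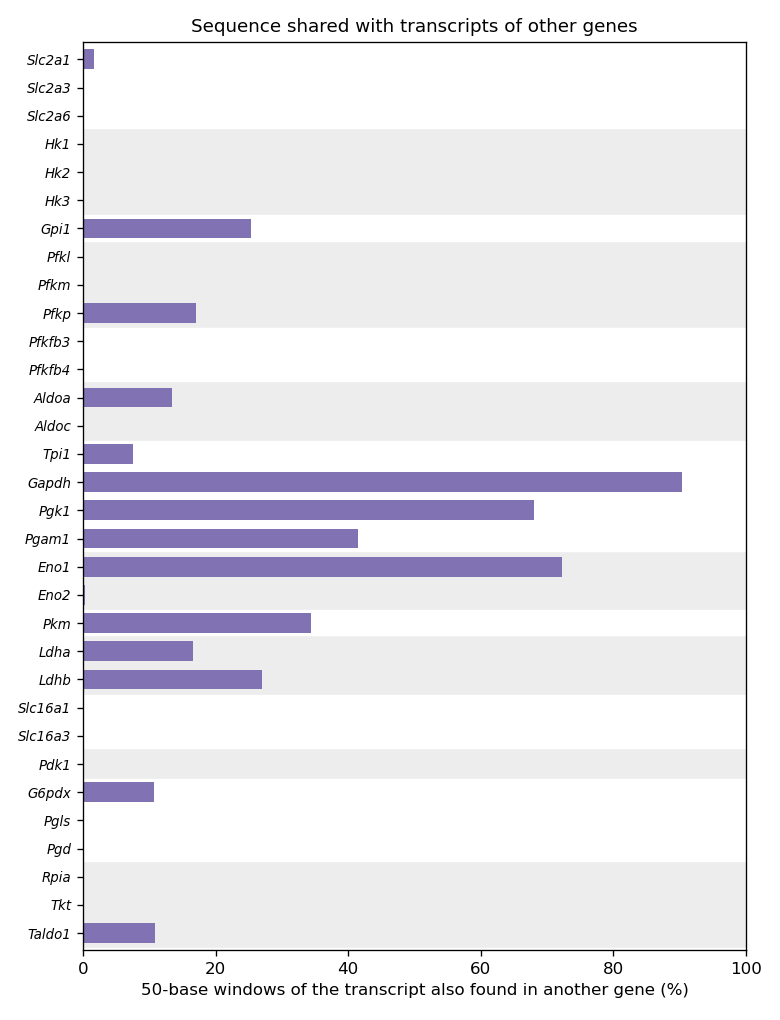
Share of the 50-base windows of each gene's longest coding transcript that also occur in a transcript of another gene in GENCODE M21. Gapdh, Eno1, Pgk1 and Pgam1 share over 40%, and the transporters and hexokinases share at most 1.74%.

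Ldhb had the smallest adjusted p of the 32 genes, while Ldha, the other lactate dehydrogenase, did not pass. These enzymes interconvert pyruvate and lactate. Ldhb, the heart subunit, lay at 148 and 143 CPM in the untreated libraries and 30.8, 31.3 and 23.7 CPM after TBI. The highest TBI library was far below the lowest untreated one, and Ldhb fell by 2.35 on the log2 scale (log2 difference -2.35 ± 0.17 SE, edgeR adjusted p = 3.51e-05), 5.09-fold, with the call kept in all 14 refits. Ldha, the muscle subunit, lay at 1350.4 and 1435 CPM untreated and 1598, 1597 and 1588 CPM after TBI. The groups did not overlap, but the difference of 0.20 ± 0.10 (SE; edgeR adjusted p = 0.222) has a 95% interval of -0.04 to 0.43, and its sign changed with library size alone. Ldha had the highest level per kilobase of the 32 genes in both groups (421 and 482 CPM per kilobase), while Ldhb went from rank 6 to rank 21 (92.7 to 18.2). The share of Ldhb in their summed level was 18.8% and 17.3% in the untreated libraries and 3.91%, 3.97% and 3.05% after TBI. With the coding length the mean share went from 10.2% to 1.90%. The summed level itself was 502 and 524 CPM per kilobase in the untreated and 502, 502 and 495 in the TBI libraries. Ldha lies on chromosome 7, 46841475 to 46855627, and Ldhb on chromosome 6, 142490249 to 142507957.

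Of the monocarboxylate transporters, Slc16a3 rose and Slc16a1 did not pass. Slc16a3 encodes MCT4, which exports lactate from strongly glycolytic cells. It lay at 52.4 and 70.0 CPM in the untreated and 103, 102 and 97.2 CPM in the TBI libraries, without overlap, with a log2 difference of 0.72 ± 0.17 (SE; edgeR adjusted p = 0.0175). It was not called without untreated replicate 1, without TBI replicate 2 or with library size alone (adjusted p from 0.00174 to 0.249). Slc16a1 encodes MCT1, which carries lactate in either direction, and lay at 98.4 and 124 against 106, 112 and 86.96 CPM. Its groups overlapped (log2 difference -0.13 ± 0.17 SE, edgeR adjusted p = 0.628, 95% interval -0.52 to 0.26), and its sign changed without untreated replicate 2. The share of Slc16a3 in the pair went from 31.3% ± 0.877 to 45.3% ± 2.63 (SD, 2 and 3 libraries), so Slc16a1 was the higher of them in every library by exon length, whereas with the coding length Slc16a3 held 51.1% after TBI.

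Pdk1, a kinase that switches off pyruvate dehydrogenase and so keeps pyruvate from entering mitochondria, fell. It lay at 63.02 and 58.99 CPM in the untreated libraries and 37.9, 40.8 and 37.8 CPM after TBI, with no overlap and with a log2 difference of -0.65 ± 0.16 (SE; edgeR adjusted p = 0.0212), 1.57-fold lower. The call was lost without untreated replicate 1, untreated replicate 2 or TBI replicate 3 (adjusted p from 0.00421 to 0.243).

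In the oxidative arm of the pentose phosphate pathway both genes for the enzymes that make NADPH rose. G6pdx encodes glucose 6-phosphate dehydrogenase, the rate-limiting enzyme of the pathway, and lay at 128 and 121 CPM in the untreated and 246, 236 and 243 CPM in the TBI libraries. Pgd encodes 6-phosphogluconate dehydrogenase and lay at 87.4 and 76.5 CPM untreated and 179, 173 and 163 CPM after TBI. In both genes the TBI libraries were close to each other and all above the untreated ones. The log2 differences were 0.96 ± 0.13 (SE; edgeR adjusted p = 0.000945) for G6pdx and 1.07 ± 0.14 (SE; edgeR adjusted p = 0.000938) for Pgd, 1.95-fold and 2.09-fold, and both calls were kept in all 14 refits (highest adjusted p 0.0283 and 0.0285). Pgls, the lactonase of the step between them, did not pass: it lay at 116 and 104 CPM untreated and 103, 94.8 and 84.7 CPM after TBI, a difference of -0.23 ± 0.15 (SE; edgeR adjusted p = 0.312), and with library size alone it was called lower (adjusted p from 0.0441 to 0.8 over the alternatives). G6pdx lies on chromosome X, 74409483 to 74429194, and Pgd on chromosome 4, 149149991 to 149166771.

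In the non-oxidative arm no gene passed. Taldo1, the transaldolase, had the second highest level per kilobase of the 32 genes in both groups (365 and 276 CPM per kilobase). It lay at 777 and 807 CPM in the untreated libraries and 702, 592 and 500.3 CPM after TBI, all below the untreated ones, with a difference of -0.41 ± 0.15 (SE; edgeR adjusted p = 0.0963). It was called lower without TBI replicate 1 and with library size alone (adjusted p from 0.0048 to 0.385). Tkt, the transketolase, lay at 277 and 284 against 393, 344 and 357 CPM, all TBI libraries above, with 0.38 ± 0.13 (SE; edgeR adjusted p = 0.0624), and was called by DESeq2, limma-voom and without TBI replicate 1 (0.0207 to 0.37). Rpia, the ribose 5-phosphate isomerase, had 18 and 10 counts against 13, 10 and 15, and at this depth no difference was detectable (95% interval -1.52 to 1.44 on the log2 scale). Its sign changed without untreated replicate 1 and without TBI replicate 2.

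Within-library ratios of isoenzymes do not depend on how libraries are scaled. For 14 pairs in 8 families the log2 ratio of their levels per kilobase was compared between groups with an exact two-sided permutation test over the 5 libraries. With 2 libraries against 3 this exact permutation test cannot go below p = 0.2, so no pair could pass, and the lowest adjusted p over the 14 pairs was 0.215. In 13 of the pairs the ratios of the groups did not overlap. How often ratios of other gene pairs do so was not computed, and pairs drawn from the same family can share a gene. Taken singly, 56.1% of all genes tested did not overlap between groups. The largest shift was that of Slc2a6 against Slc2a3, whose ratio was 1.94 and 1.98 in the untreated and 28.5, 17.4 and 12.1 in the TBI libraries, a shift of 3.21 on the log2 scale (exact permutation p = 0.2). Ldhb against Ldha followed, with ratios of 0.232 and 0.210 against 0.0407, 0.0413 and 0.0314, a shift of -2.55. Hk3 moved by 0.96 against Hk1 and by 0.93 against Hk2 on the log2 scale. The ratio of Hk2 to Hk1 was the one that overlapped between groups, with a shift of 0.03 (exact permutation p = 1). The shift was 0.86 for Slc16a3 against Slc16a1, 0.61 for Pfkfb4 against Pfkfb3, -1.33 for Aldoc against Aldoa and -1.99 for Eno2 against Eno1, the last resting on few counts and on a gene with a near-identical copy. In the phosphofructokinases Pfkp moved by -0.53 and Pfkm by -0.86 against Pfkl.

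**Figure D4:**
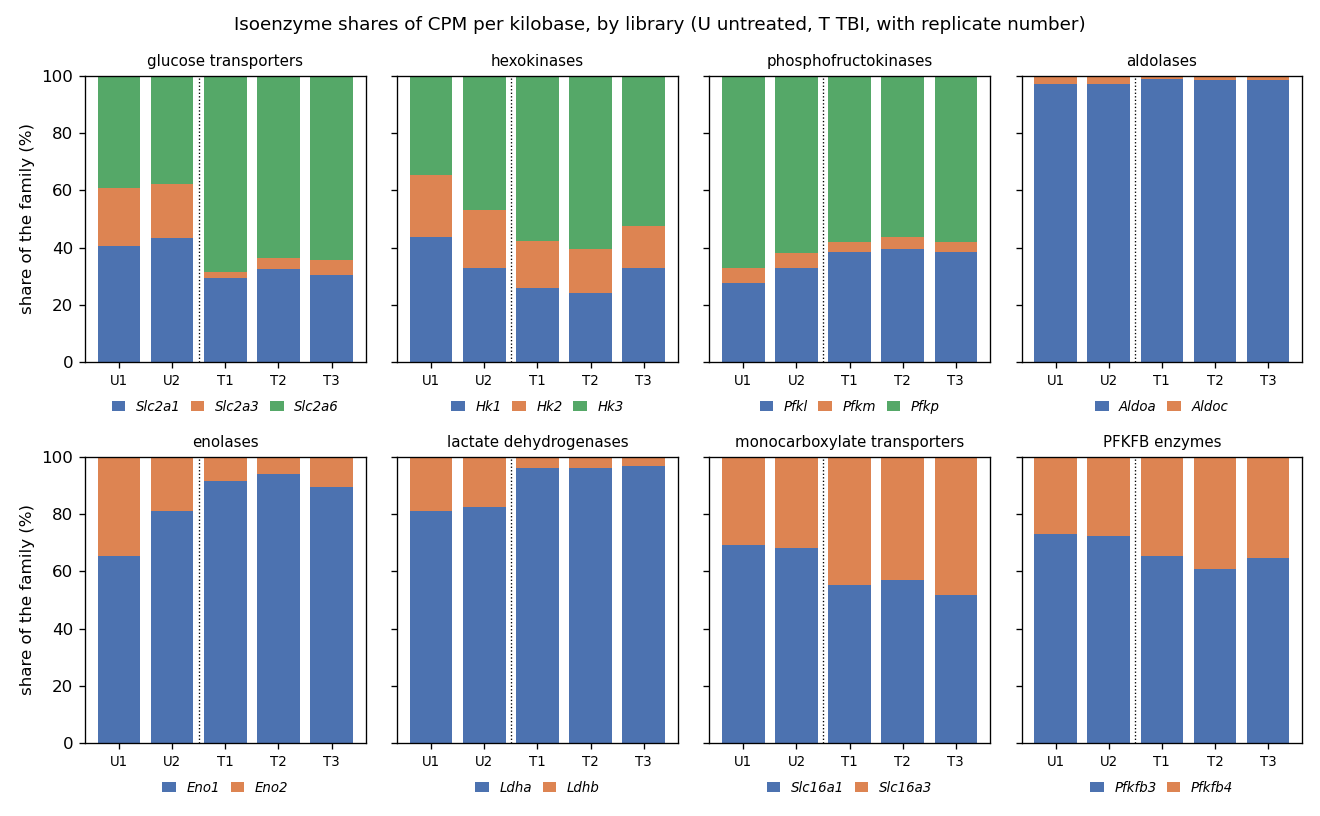
Share of each isoenzyme in the summed CPM per kilobase of exon of its family, for the untreated libraries (U1, U2) and the TBI libraries (T1 to T3), with a dotted line between groups. Slc2a3 holds at most 5.33% and Ldhb at most 3.97% in the TBI libraries, where Hk3 and Slc2a6 hold the largest part of their families.

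The TBI libraries differed among themselves. TBI replicate 1 was the lowest TBI library for 13 members, the highest for 14 and in between for 5. The 13 members in which it was lowest were all 3 glucose transporters, all 3 hexokinases, all 3 phosphofructokinases, both PFKFB genes, Aldoc and Pkm. The 14 in which it was highest included Gpi1, Tpi1, Gapdh, Pgk1, Pgam1, both enolases, Ldha and 5 of the 6 pentose phosphate genes. Over all genes tested TBI replicate 1 was lowest for 39.3% and highest for 39.6%, so being outermost was as common elsewhere, with members at 40.6% and 43.8%. As a ratio of the highest to the lowest TBI library, the spread was widest for Slc2a3, at 14.2 CPM against 28.6 and 35.6, and for Pfkfb4, at 16.9 against 33.1 and 31.3. Exon length moved with this order. The median exon length was 5001 bases for the 13 members in which TBI replicate 1 was lowest and 3951 for the 14 in which it was highest, and over all genes tested it was 5580 and 3313 bases. The part of length in these differences was not tested. Without TBI replicate 1, all 11 calls were kept and 9 were added: Slc2a1, Hk1, Hk2, Pfkl, Pfkfb3, Pfkfb4, Gapdh and Tkt as higher and Taldo1 as lower.

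**Figure D5:**
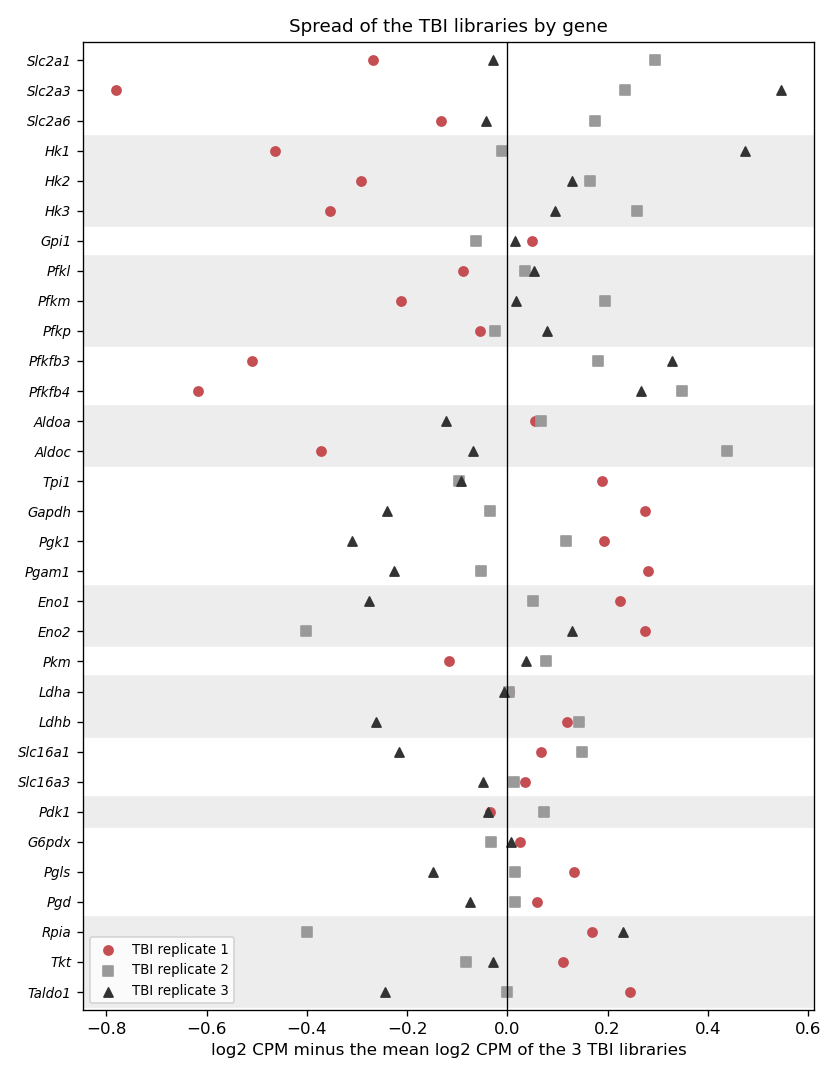
Level of each gene in each TBI library as log2 CPM minus the mean log2 CPM of the 3 TBI libraries. TBI replicate 1 (red) lies left of the others from the glucose transporters to the PFKFB genes, with Gpi1 as the exception, and right of them for Tpi1, Gapdh, Pgk1, Pgam1 and most pentose phosphate genes.

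A second list held 54 other genes of the same pathways, of which 51 were in the table and 44 were tested. Of these, 7 were higher and 5 lower after TBI (15.9% and 11.4%, near the 13.3% and 9.79% of all genes), with a median log2 fold change of 0.03. Pgam2, the muscle phosphoglycerate mutase, moved most. It lay at 25.6 and 36.3 CPM in the untreated libraries and 1.16, 2.28 and 2.62 CPM after TBI, with a log2 difference of -3.92 ± 0.35 (SE; edgeR adjusted p = 0.000116). Its counterpart Pgam1, described above, had a positive value that did not pass. Emb, which encodes embigin, a partner protein of monocarboxylate transporters, rose from 135 and 142 to 327, 314 and 356 CPM (log2 difference 1.27 ± 0.13 SE, edgeR adjusted p = 0.000262), and Bsg, which encodes basigin, the partner of MCT1 and MCT4, from 234 and 224 to 390.3, 363 and 319 CPM (log2 difference 0.64 ± 0.14 SE, edgeR adjusted p = 0.011). Adpgk, an ADP-dependent glucokinase, fell from 85.9 and 94.1 to 43.3, 36.9 and 38.1 CPM (log2 difference -1.19 ± 0.16 SE, edgeR adjusted p = 0.00106), and the transporter gene Slc2a8, which encodes GLUT8, rose from 11.99 and 10.1 to 31.3, 30.2 and 31.5 CPM (log2 difference 1.48 ± 0.21 SE, edgeR adjusted p = 0.00153). With either untreated library left out, which leaves 1, Bsg was not called. Fewer genes of the list and fewer of all genes were then called in each direction. The other genes called were Fbp1, Eno1b, Pygl and Gbe1 as higher and Eno3, Bpgm and Gys1 as lower, named because so few genes moved in each direction.

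Hypoxia-inducible factors raise many glycolysis genes, and a list of 22 of their subunits, regulators and targets outside glycolysis was read from the same fit. In this list 7 were higher and 3 lower (31.8% and 13.6%, against 13.3% and 9.79% of all genes tested), 12 did not pass, and the median log2 fold change was 0.35. Hif1a itself, an oxygen-regulated subunit, lay at 201 and 232 CPM untreated and 189, 291 and 277 CPM after TBI and did not pass (log2 difference 0.22 ± 0.20 SE, edgeR adjusted p = 0.47). Bhlhe40, a transcription factor, went from 309.9 ± 31.7 to 596 ± 23.03 CPM, with 0.94 ± 0.13 (SE; edgeR adjusted p = 0.00111), and Vegfa, the vascular growth factor, from 28.8 ± 4.81 to 75.1 ± 12.5 CPM, with 1.38 ± 0.21 (SE; edgeR adjusted p = 0.00222), each as a group mean ± SD over 2 and 3 libraries. P4ha2, a collagen prolyl hydroxylase, had at most 5 counts in an untreated library and passed as higher (log2 difference 4.41 ± 0.63 SE, edgeR adjusted p = 0.00152). Vhl, which marks the factor for breakdown, fell from 113 ± 3.02 to 44.4 ± 10.6 CPM (log2 difference -1.35 ± 0.20 SE, edgeR adjusted p = 0.00195). Also called were Epas1, the gene of another such subunit, Egln2, Adm and P4ha1 as higher and Hif1an and the target Ndrg1 as lower. Without TBI replicate 2, 4 genes of the list were higher, against 1320 of all 12046 genes tested. With either untreated library left out, which leaves 1, fewer genes of the list and fewer of all genes were called in each direction. Of 16 genes for enzymes of the tricarboxylic acid cycle 1 was higher (6.25%, against 13.3% of all genes) and none was lower, with a median of 0.19. The higher one was Mdh2, a malate dehydrogenase (log2 difference 0.68 ± 0.15 SE, edgeR adjusted p = 0.0136). At an unadjusted edgeR p under 0.05 the counts were 4 and 0, against 2314 and 1986 of all 12046 genes tested. They were 3 and 0 by DESeq2 (1794 and 1346 of all genes), and 1 and 2 with library size alone (1241 and 2129). Mdh2 was not called without either untreated library, and without TBI replicate 1 the higher genes numbered 4 and without TBI replicate 3 they numbered 3. Of 18 genes for subunits of respiratory complexes I and IV none passed in either direction by edgeR, against 23.1% of all genes. At an unadjusted edgeR p under 0.05, 4 were higher and 0 lower, against the same 2314 and 1986 of all genes. By DESeq2 1 was higher (1794 of all genes), and 2 were without TBI replicate 1 or 3 (2148 and 1466 of all genes). The most expressed were Cox4i1, at 325 and 321 against 497, 359.7 and 346 CPM (log2 difference 0.31 ± 0.17 SE, edgeR adjusted p = 0.244), and Cox6a1, at 274 and 272 against 386, 306 and 274 CPM (log2 difference 0.24 ± 0.16 SE, edgeR adjusted p = 0.338). Their median was 0.30, and TBI replicate 1 held their highest sum, 4090 CPM against 3010 and 2840 in the other TBI libraries and 2660 and 2630 untreated. All 18 of these subunit genes had a positive value. The groups did not overlap for 11 of them, all higher after TBI, against 27.8% higher and 28.3% lower over all genes tested. Of the 16 tricarboxylic acid cycle genes 13 had a positive and 3 a negative value, with 7 higher and 2 lower without overlap.

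Promoter sequences from RefSeq (GRCm38.p6) were matched to 31 of the 32 members by symbol, Slc2a3 being the other one, with 45 windows of the 250 bases before a start site. They were searched on both strands for the core of the hypoxia response element, ACGTG or GCGTG, and for the core of the antioxidant response element bound by NRF2, TGACNNNGC. A hypoxia core was present in 36 of the 45 windows, and in 38.6% of all 32851 windows in the table. The members' windows were richer in G and C, with a median of 60.4% against 52.4% and a median of 14 against 6 CG dinucleotides, and the cores themselves contain CG. The antioxidant core was found in 4 of the 45 windows, among them that of G6pdx, and in 10.2% of all windows. These matches are descriptions of sequence and say nothing of binding in these cells. A window of Ldha and the window of Ldhb are shown because Ldhb had the smallest adjusted p and Ldha is its partner isoenzyme. The windows of Slc2a6 and Hk3 are shown because these genes rose and led their families after TBI by exon length. None of the 4 windows overlaps an exon in GENCODE M21. Capitals mark the matches on either strand, and CACGTG in the Ldha window is ACGTG read on both strands with an overlap. They lie at chr7:46845554-46845803 (+ strand), chr6:142507958-142508207 (- strand), chr2:27027999-27028248 (- strand) and chr13:55021386-55021635 (- strand).
Ldha: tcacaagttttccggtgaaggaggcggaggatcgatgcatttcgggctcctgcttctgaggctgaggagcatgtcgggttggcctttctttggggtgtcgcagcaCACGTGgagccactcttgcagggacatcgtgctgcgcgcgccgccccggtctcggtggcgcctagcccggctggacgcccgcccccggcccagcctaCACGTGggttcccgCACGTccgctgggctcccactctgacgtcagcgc
Ldhb: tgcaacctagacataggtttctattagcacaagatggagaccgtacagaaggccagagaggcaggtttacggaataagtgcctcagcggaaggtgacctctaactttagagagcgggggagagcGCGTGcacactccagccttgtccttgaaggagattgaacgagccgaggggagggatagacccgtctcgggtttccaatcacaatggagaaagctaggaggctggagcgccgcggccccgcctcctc
Slc2a6: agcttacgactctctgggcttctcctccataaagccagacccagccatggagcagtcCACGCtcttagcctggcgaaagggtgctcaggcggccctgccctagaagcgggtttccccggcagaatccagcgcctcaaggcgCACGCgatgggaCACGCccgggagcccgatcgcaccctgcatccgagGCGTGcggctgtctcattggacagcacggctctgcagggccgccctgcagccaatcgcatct
Hk3: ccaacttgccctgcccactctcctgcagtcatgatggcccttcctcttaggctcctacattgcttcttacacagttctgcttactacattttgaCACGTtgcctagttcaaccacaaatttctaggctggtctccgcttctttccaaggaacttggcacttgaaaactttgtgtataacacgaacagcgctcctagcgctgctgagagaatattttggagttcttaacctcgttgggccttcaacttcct
The Ldha window shown held 5 matches, which overlap in 2 places, the Slc2a6 window 4, and the Ldhb and Hk3 windows 1 each. Another Ldha window, at chr7:46846832-46847081 (+ strand) and not shown, held 1 match, so the count for Ldha depends on the start site.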

How the data were processed

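RNA of sorted thymic dendritic cells was measured in 5 libraries (2 untreated, 3 TBI). Per the labels, cDNA was made with SMART-Seq v4, which amplifies by PCR without molecular identifiers, so depth limits describe counting error only. Per the submitters' processing notes, the authors aligned reads to mm10 with STAR 2.5.2a and assigned them with Subread featureCounts 1.6.0. The deposited values are raw read counts per gene symbol. Annotation, strand setting and treatment of multiply mapped reads are not given in the sources used here. The treatment note names the samples by another day than the titles and treatment tags, which give day 4, used here. The table held 0 columns of other samples, 1476 genes with no count and 23 symbols turned into dates, which stayed in the totals.

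The test was that of edgeR 4.0.16 under R 4.3.3 (TMM scaling, filterByExpr with a minimum count of 10 and a minimum total of 15, quasi-likelihood F-test with the group as the only term), adjusted over 12046 genes at 0.05. Functions were tested on simulated data with 200 changed genes. Levels per kilobase used the union of exons in GENCODE M21 (GRCm38), with the coding sequence and the longest transcript as alternatives. Each alternative changed 1 choice: scaling (size factors of DESeq2, upper quartile or plain library size), filter (absent, or 1 CPM in 3 libraries and 100 counts), tool (DESeq2 1.42.0, or voom in limma 3.58.1), shrinkage made robust, a block for the replicate number, a threshold of 2-fold, or 1 library dropped. Where that left 1 untreated library, its spread was taken to be that of the TBI group. Permutation tests used scipy 1.17.1 and figures matplotlib 3.10.9.

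The members and gene lists were chosen with earlier results of these data known. All 32 members are named, with up to 4 genes of each other list that passed and had the smallest p. Others were named after their values were seen.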

Additional observations from a re-analysis of the deposited data

How the results depend on the processing

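Every one of the 11 members called stayed on its side of 0 in all alternatives, and Slc2a6, Hk3, Ldhb, G6pdx and Pgd stayed past the threshold in all 14 refits. When a change of at least 2-fold was also required, G6pdx (1.95-fold) was not called. At that requirement 3 of the 32 members were higher and 2 lower, against 1112 and 743 of all 12046 genes tested. The shares of members and of all genes were then close in each direction, so members were no longer higher more often than other genes. The 8 higher members became 5 with library size alone and 3 when a change of at least 2-fold was also required, and ran from 4 to 16 with 1 library left out. The 3 lower members became 6 with library size alone and ran from 1 to 4 with 1 library left out. Over all genes, 1599 were higher, with 810 to 2148 when a library was left out, and 1179 were lower, with 2129 by library size alone, 743 at 2-fold or more and 423 to 1780 with a library left out. Shifts of isoenzyme ratios kept their sign in all pairs but Hk2 against Hk1, which ran from -0.128 to 0.21 with 1 library left out. In the 13 pairs without overlap, leaving out 1 library could not change the sign, and gene length cancels from the shift. Their kept sign thus adds nothing to the lack of overlap. Signs also reversed for Gpi1 (-0.054), Pgk1 (-0.054) and Ldha (-0.031) with library size alone, for Slc16a1 without untreated replicate 2 (from -0.289 to 0.046 with 1 library left out), and for Rpia without untreated replicate 1 (0.422) or TBI replicate 2 (0.137; lowest -0.383), none of them called. The cause was not tested.

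Replicate numbers are shared by the groups, but same-numbered libraries did not deviate together (r = -0.016 for number 1 and -0.00989 for number 2), so they were not treated as pairs. With the replicate block, 8 members were higher and 2 lower: Pkm (adjusted p = 0.0535) and Pdk1 (0.0744) were not called and Gapdh (0.0199) was. The block took the higher genes of the hypoxia-inducible factor list from 7 to 4, of the tricarboxylic acid cycle list from 1 to 2 and of the complex I and IV list from 0 to 2. Precision is limited by depth for Eno2 and Rpia, which held 5 to 27 counts in a library.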
